A study of Triticum aestivum with 6 samples.

Results

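The long arms of the homoeologous group 5 chromosomes of bread wheat (Triticum aestivum) are 5AL, 5BL and 5DL, 1 in each of the A, B and D subgenomes. Their leaf transcripts were compared between plants at 4 °C and plants at 23 °C. Genes were assigned to an arm by the arm written in their identifier. They were kept where the FPKM of their transcripts (fragment numbers scaled to transcript length and to all mapped fragments) summed to at least 1 in both conditions, with a mean of both conditions under 100. Of 11350 gene identifiers on the 3 arms, 4497 met these limits: 1331 of 3079 on 5AL, 1643 of 4560 on 5BL and 1523 of 3711 on 5DL. On all 41 arms of the table, in which chromosome 3B is not divided, 36956 of 99386 did.

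The 4 °C group comprised 3 leaf libraries labelled 4 weeks, and the 23 °C group 3 leaf libraries labelled 2 weeks. Per the labels, each temperature had its own growth chamber, day and night, with 16 hours of light at 120 μmol per square metre and second, and the cold treatment lasted 2 weeks. All libraries carry the same lipid label, 18:3, a term for plants whose leaf galactolipids are made mainly by the route through the endoplasmic reticulum. The sources used here do not name the variety. Temperature, chamber and labelled weeks cannot be told apart in any comparison of the 2 groups.

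As background, a homoeologous group holds the corresponding chromosomes of the 3 diploid ancestors, so most genes of an arm have a counterpart on each of the other arms. The long arms of group 5 are known for their part in winter hardiness. They carry the vernalization gene VRN1, a MADS-box regulator of flowering that responds to long cold, and a cluster of CBF genes, AP2/ERF transcription factors that activate cold-regulated genes. 5BL also carries Ph1, the locus that restricts meiotic pairing to true homologues. The end of 5AL was exchanged with the end of 4AL during wheat evolution, so 5AL is not the counterpart of 5BL and 5DL over its whole length.

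The deposited table gives 1 value per transcript and condition, so no difference between 4 °C and 23 °C has a replicate check, a standard deviation or a p-value. Counts of genes past a fold threshold describe these 2 columns. None of the identifiers matched the RefSeq gene table of the assembly IWGSC CS RefSeq v2.1, so the genes have no names or functions here, and which of them is VRN1, a CBF gene or a counterpart of another cannot be stated. Defining leaf markers could not be checked for the same reason. Reads of homoeologous copies can be assigned to each other, so values on the 3 arms are not fully separate measurements.

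Over all members, the 3 arms had nearly the same central ratio of FPKM at 4 °C to FPKM at 23 °C; among genes with 1 transcript they did not. The median log2 ratio was 0.09 on 5AL, 0.08 on 5BL and 0.08 on 5DL, close to the 0.11 of all genes within the limits. For the 756 members with 1 transcript it was 0.21 on 5AL, 0.10 on 5BL and 0.03 on 5DL, where all such genes gave 0.145. Values at 4 °C exceeded those at 23 °C in 55.0% of the genes of 5AL, 55.1% of 5BL and 55.1% of 5DL, against 56.3% on the other 38 arms. Most genes moved little: the ratio lay within 1.5-fold of 1 for 790 genes of 5AL (59.4%), 888 of 5BL (54.0%) and 858 of 5DL (56.3%), against 56.9% on the other arms. Median-of-ratios scaling lowered the 4 °C column by 0.11 on the log2 scale relative to 23 °C. This shift was computed from all genes within the limits and is their median log2 ratio. It therefore sets the median of all genes to 0 by construction, and any arm with a smaller median must turn negative. After the scaling the medians were -0.02 on 5AL, -0.03 on 5BL and -0.03 on 5DL. The direction of the median therefore depends on the scaling. A constant shift leaves the distance of each arm from all genes as it was.

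**Figure D1:**
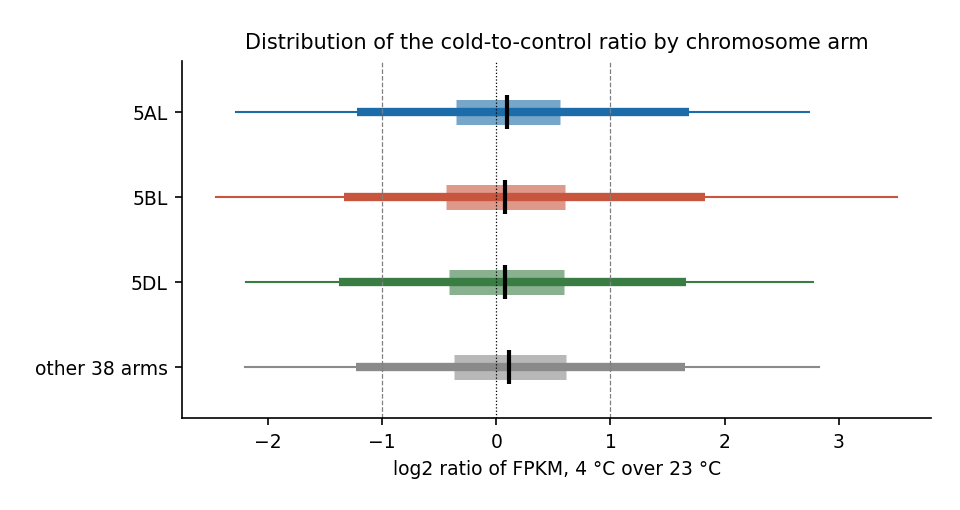
Log2 ratio of FPKM at 4 °C to 23 °C for member genes of 5AL, 5BL and 5DL and for genes of the other 38 arms within the same limits. The black mark is the median, the wide bar spans the quartiles, the medium bar the 5th to 95th percentile and the thin line the 1st to 99th; dashed lines mark 2-fold. The 99th percentile of 5BL (3.51) lies beyond those of 5AL (2.74), 5DL (2.77) and the other arms (2.83).

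Over all members, the arms differed more in their spread than in their centre. The interquartile range of the log2 ratio was 0.91 on 5AL, 1.04 on 5BL and 0.99 on 5DL, which placed 5AL 36th, 5BL 5th and 5DL 15th of 41 arms. The 5th and 95th percentiles were -1.22 and 1.69 on 5AL, -1.33 and 1.83 on 5BL, and -1.38 and 1.66 on 5DL. On each of the 3 arms the upper tail was longer than the lower one: the 95th percentile lay 1.60, 1.76 and 1.59 above the median of 5AL, 5BL and 5DL in turn, and the 5th percentile 1.31, 1.41 and 1.46 below it. The other 38 arms showed the same, with 1.54 above the median and 1.34 below.

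Past 2-fold, each arm held more genes that were higher at 4 °C than genes that were lower. On 5AL 175 genes were higher (13.1%) and 92 lower (6.91%). On 5BL 240 were higher (14.6%) and 153 lower (9.31%). On 5DL 203 were higher (13.3%) and 131 lower (8.60%). Among all genes within the limits 13.5% were higher and 7.81% lower, so the higher shares of 5AL and 5DL lay next to the background, and 5BL exceeded it in both directions. By the share of lower genes 5BL ranked 5th, 5DL 9th and 5AL 30th of 41 arms, in a range of 4.95% to 13.1%. By the share of higher genes 5BL ranked 9th, 5DL 21st and 5AL 25th, in a range of 9.35% to 17.7%.

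The balance of the 2 directions depended on the scaling. Higher genes made up 65.5% of those past 2-fold on 5AL, 61.1% on 5BL and 60.8% on 5DL in the deposited values, and 55.6%, 51.6% and 50.5% after median-of-ratios scaling. Over all genes these shares were 63.4% and 54.2%, so the arms lay near the background under both. The order of the arms by lower genes was not stable to the minimum or to some other settings. On the log2(FPKM + 1) scale 6.30% of the genes of 5DL and 6.03% of 5BL were lower, against 5.04% of all genes. Among genes with 1 transcript these shares were 14.1% and 9.85%, against 9.49%. With at least 5 FPKM in both conditions, 6.17% of the genes of 5AL, 6.41% of 5BL and 6.76% of 5DL were at least 2-fold lower, against 5.17% of all genes.

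**Figure D2:**
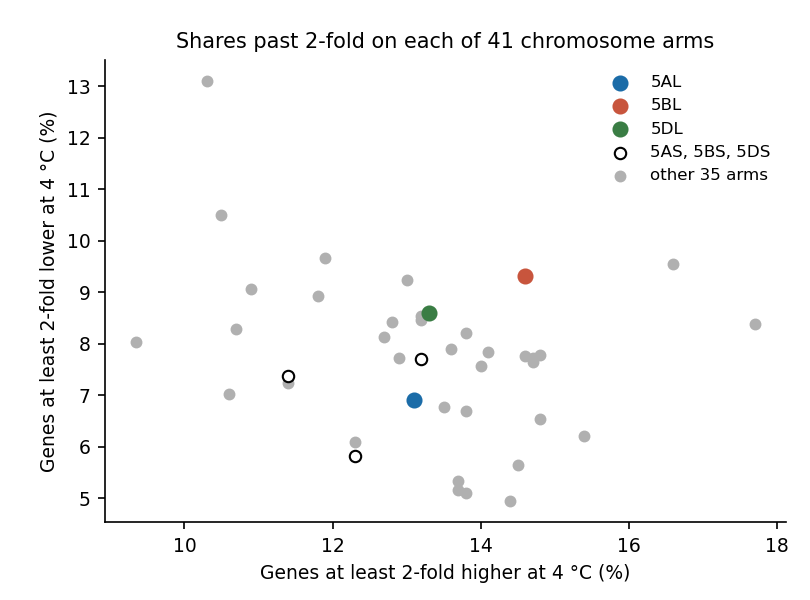
Share of genes at least 2-fold higher (x axis, %) and at least 2-fold lower (y axis, %) at 4 °C on each of the 41 chromosome arms, over genes within the limits. 5BL lies above most arms on both axes (14.6% and 9.31%), while 5AL (13.1% and 6.91%) and 5DL (13.3% and 8.60%) lie among the bulk of the arms on the x axis.

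In the deposited values with the limits used, 5BL had the largest share of the 3 arms at higher thresholds in the higher direction; this order did not hold with a minimum of 5 FPKM. At 4-fold, 65 genes of 5BL were higher (3.96%) and 33 lower (2.01%), where all genes gave 3.15% and 1.39%. On 5AL 44 genes were higher (3.31%) and 19 lower (1.43%), and on 5DL 48 were higher (3.15%) and 29 lower (1.90%). At 8-fold, 24 genes of 5BL were higher (1.46%), against 10 of 5AL (0.751%) and 9 of 5DL (0.591%), where all genes gave 0.828%. In the other direction 6 genes of 5BL (0.365%), 8 of 5AL (0.601%) and 3 of 5DL (0.197%) were at least 8-fold lower, where all genes gave 0.308%. By the share of genes at least 8-fold higher, 5BL was 2nd of 41 arms. With at least 5 FPKM in both conditions the 24 genes became 5 (0.745%), fewer than the 6 of 5AL (1.0%), where 5DL had 2 (0.30%) and all genes gave 0.407%. At 4-fold 5BL then had the smallest share of the 3 arms, with 20 genes higher (2.98%), against 3.67% on 5AL and 3.6% on 5DL. Among genes with a single transcript 5 of 5BL were at least 8-fold higher (1.82%, against 1.51% of all such genes), which ranked 14th of 41 arms.

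The short arms of the same chromosomes held fewer large differences in the higher direction. At 4-fold, 3.49% of the genes of the 3 long arms were higher at 4 °C, against 1.47% of the 1365 genes of the short arms. The share was larger on the long arm of each chromosome: 3.31% on 5AL against 1.51% on 5AS, 3.96% on 5BL against 1.12% on 5BS, and 3.15% on 5DL against 1.76% on 5DS. Since all genes gave 3.15%, it was the short arms that lay away from the background, and 5BS had the lowest share of the 41 arms. At 2-fold the difference was smaller, with 13.7% on the long arms and 12.3% on the short arms higher, and 8.36% and 6.96% lower. On 4AL, which shares the ancient exchange with 5AL, 14.1% of 1044 genes were at least 2-fold higher and 7.85% lower.

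Within the limits, direction went with abundance on all 3 arms. The trend did not continue above the upper limit. Of 125 genes of the 3 arms with a mean of 100 FPKM or more, 21 were at least 2-fold higher and 14 lower. Their median log2 ratio was 0.20, against 0.39 for members with a mean of 20 to under 100 FPKM. Of the members, 2119 had a mean of 1 to under 5 FPKM, 1736 a mean of 5 to under 20 and 642 a mean of 20 to under 100. In the lowest class the median log2 ratio was -0.001 on 5AL, 0.03 on 5BL and 0.01 on 5DL, and in the highest class it was 0.35, 0.41 and 0.39. Over the 3 arms together, genes past 2-fold in favour of 4 °C made up 9.49% of the lowest class (all genes 9.18%), 15.2% of the middle class (all genes 15.3%) and 23.8% of the highest (all genes 23.4%). Genes at least 2-fold lower made up 7.27% of the lowest class (all genes 7.64%), 9.56% of the middle class (all genes 7.92%) and 8.72% of the highest (all genes 8.10%). The ratio of higher to lower genes was 1.31, 1.59 and 2.73 from the lowest class to the highest, against 1.2, 1.93 and 2.89 over all genes. After median-of-ratios scaling the lowest class turned, with 159 genes higher and 198 lower, the middle class had 218 and 203, and the highest class 137 and 68. The lowest class of the other 38 arms turned in the same way, since the scaling shifts all genes alike. Scaled, the lowest class had 7.50% higher and 9.34% lower on the 3 arms, against 7.39% and 9.70% on the other arms. In the middle class these shares were 12.6% and 11.7% on the 3 arms, against 13% and 9.40%, and in the highest 21.3% and 10.6%, against 20.6% and 9.24%. Within the limits, the share of higher genes thus increased with abundance on these arms by about as much as over all genes. The mean that sets the class is built from the same 2 values as the ratio. With classes by geometric mean, chosen after seeing the data, the increase was smaller in the deposited values. The shares were then 10.5%, 15.8% and 19.7% from the lowest class to the highest, against 10.6%, 15.2% and 19.6% on the other arms.

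**Figure D3:**
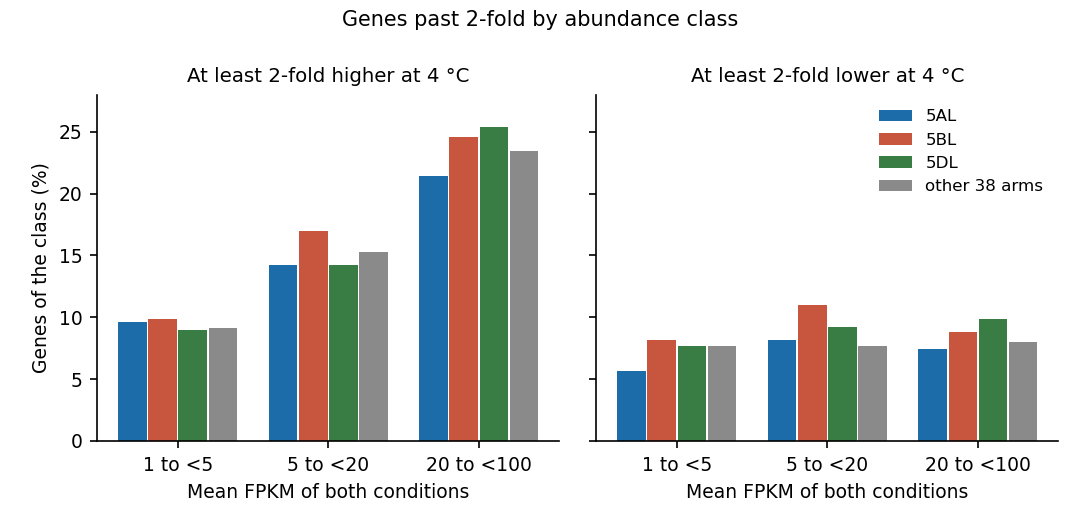
Share of genes in each class of mean FPKM past 2-fold in favour of 4 °C (left) or of 23 °C (right), for 5AL, 5BL, 5DL and the other 38 arms. The bars of higher genes are tallest in the highest class (21.4%, 24.6%, 25.4% and 23.4%), while lower genes stay between 5.68% and 11.0% in every class.

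By class, single arms lay near the background in some cases and away from it in others. Past 2-fold in the highest class, where all genes gave 23.4% higher and 8.10% lower, 43 of 201 genes of 5AL were higher (21.4%) and 15 lower (7.46%), 56 of 228 genes of 5BL were higher (24.6%) and 20 lower (8.77%), and 54 of 213 genes of 5DL were higher (25.4%) and 21 lower (9.86%). These shares ranked from 9th to 28th of 41 arms. In the middle class, where all genes gave 15.3% and 7.92%, 5BL had 105 of 616 genes higher (17.0%) and 68 lower (11.0%), the 2nd highest share of lower genes of the 41 arms, in a range of 4.17% to 12.9%. In that class 5AL had 73 of 514 genes higher (14.2%) and 42 lower (8.17%), and 5DL 86 of 606 higher (14.2%) and 56 lower (9.24%). The median log2 ratio of the middle class was low on all 3 arms, at 0.12 on 5AL, 0.07 on 5BL and 0.09 on 5DL, against 0.16 on the other arms, and ranked 32nd, 38th and 37th of 41. In the lowest class, where all genes gave 9.18% and 7.64%, 5AL had 59 of 616 genes higher (9.58%) and 35 lower (5.68%), a share of lower genes that ranked 37th. 5BL had 79 of 799 genes higher (9.89%) and 65 lower (8.14%), and 5DL 63 of 704 higher (8.95%) and 54 lower (7.67%).

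The limits themselves bound the ratio of weakly expressed genes. With both values at 1 FPKM or more, a gene can reach 2-fold only with a mean of at least 1.5 FPKM, and 221 genes of the lowest class (10.4%) lay below that mean. The largest fold the limits allow is 9 at a mean of 5 FPKM, 39 at 20 FPKM and 199 at 100 FPKM. The 2-fold counts of the middle and highest classes are not bounded in this way, and both were computed without a pseudocount.

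**Figure D4:**
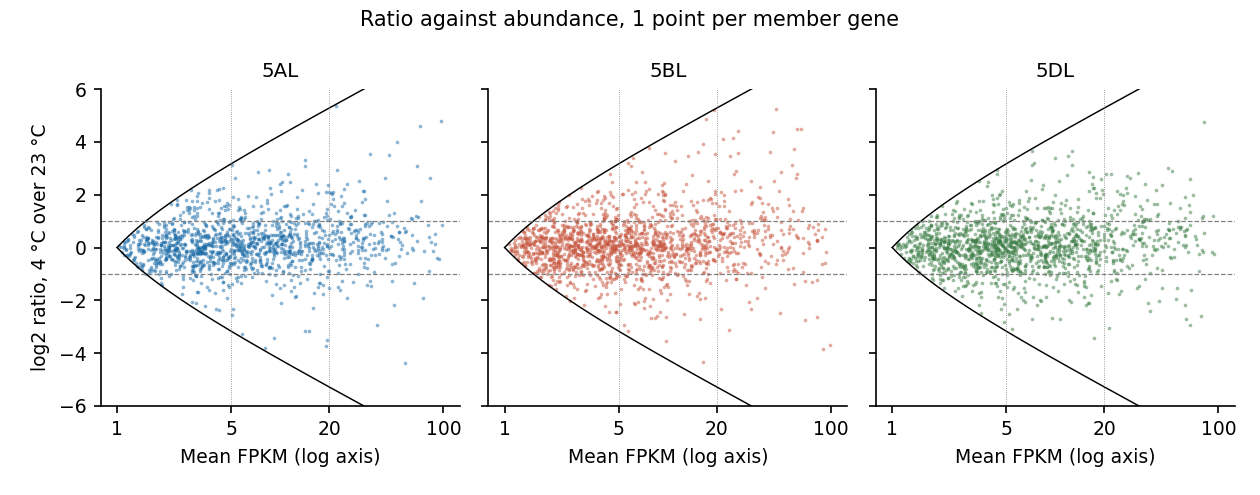
Log2 ratio of FPKM at 4 °C to 23 °C (y axis) against the mean FPKM of both conditions (x axis, log scale), 1 point per member gene of 5AL (1331), 5BL (1643) and 5DL (1523). Black curves show the largest ratio the limits allow, dashed lines 2-fold and dotted lines the class borders; points above 4 on the y axis are most frequent on 5BL.

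In summed FPKM of the members, genes of the highest class accounted for most of the net difference. Genes with a mean of 100 FPKM or more are not in these sums. On the 3 arms those genes summed to 72314 FPKM at 4 °C, against 66802 FPKM at 23 °C. The members summed to 15912 FPKM at 4 °C and 13432 at 23 °C on 5AL (ratio 1.18), to 19038 and 16204 on 5BL (1.17) and to 17760 and 15290 on 5DL (1.16). The other 38 arms had a ratio of 1.19. On 5AL the highest class was 2012 FPKM higher at 4 °C, the middle class 408.2 and the lowest 59.04. On 5BL these differences were 2108, 664.5 and 61.68 FPKM, and on 5DL 1928, 504.7 and 36.25 FPKM. The size of these differences depended on the scaling, a comparison chosen after the data were seen. Over the 3 arms the net difference was 7783 FPKM as deposited and 4211 FPKM after median-of-ratios scaling, when the ratios were 1.1 on 5AL, 1.09 on 5BL and 1.08 on 5DL, against 1.11 on the other arms. The lowest class then turned, with 5892 FPKM at 4 °C, against 6177 FPKM at 23 °C, as it did on the other arms (ratios 0.954 and 0.957). The highest class was still 4196 FPKM higher. Genes past 2-fold made up 60.8% of the summed increases on 5AL, 65.9% on 5BL and 62.3% on 5DL, and 52.4%, 58.8% and 57.9% of the summed decreases, where the other arms had 61.1% and 51.1%.

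Ratios were ranked among members, which leaves out genes under 1 FPKM in either condition. Of those left out, the highest at 4 °C had 1188 FPKM on 5BL and 9748 FPKM on 5DL. Among the members of 5AL, the 2 largest ratios in favour of 4 °C belonged to Traes_5AL_2776D04B2 and Traes_5AL_DC975C4DB. The first had 43.2 FPKM at 4 °C, against 1.04 FPKM at 23 °C, a 41.4-fold difference that rests on a 23 °C value at the lower limit. Among members it was the largest of the 3 arms by the plain ratio. On the log2(FPKM + 1) scale it was 4.43, below Traes_5BL_CFDD87D18 (4.76), Traes_5AL_DC975C4DB (4.59) and Traes_5DL_3C2379192 (4.52). A single one of its 5 transcripts held nearly all of the 4 °C value. Traes_5AL_DC975C4DB, a gene with 1 transcript, had 187 FPKM at 4 °C, against 6.79 FPKM at 23 °C, or 27.5-fold. In the other direction Traes_5AL_DCAB39442 had 5.36 FPKM at 4 °C, against 110.3 FPKM at 23 °C, 20.6-fold lower, spread over 6 transcripts. Traes_5AL_85C8D32D0, with 1 transcript, had 1.06 FPKM at 4 °C, against 15.0 FPKM at 23 °C, 14.1-fold lower.

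Among the members of 5BL, the 2 largest ratios in favour of 4 °C were close to each other. Traes_5BL_CFDD87D18 had 90.2 FPKM at 4 °C, against 2.38 FPKM at 23 °C, or 38-fold. Traes_5BL_E2A5162A3 had 37.4 FPKM at 4 °C, against 1.01 FPKM at 23 °C, or 37.0-fold, again with the 23 °C value at the limit. Its main transcript made up 57.9% of the gene at 4 °C and 18.6% at 23 °C. Traes_5BL_BC17E1F6F was 20.1-fold lower, with 1.54 FPKM at 4 °C, against 31.1 FPKM at 23 °C. The transcript that held 91.1% of its 23 °C value was listed at 0 at 4 °C, which can be a failed estimate. Traes_5BL_082C825BB had 11.6 FPKM at 4 °C, against 166 FPKM at 23 °C, 14.3-fold lower, nearly all of it in 1 of 3 transcripts.

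Among the members of 5DL, a single gene stood apart from the other higher ones by its ratio. The limits leave out 13 genes of 5DL with 10 FPKM or more at 4 °C and under 1 FPKM at 23 °C. Without the upper limit, 11 genes in place of 9 were at least 8-fold higher. Traes_5DL_3C2379192, with 1 transcript, had 157 FPKM at 4 °C, against 5.86 FPKM at 23 °C, or 26.7-fold, while the next, Traes_5DL_12B63B72E, had 13.3 FPKM at 4 °C, against 1.06 FPKM at 23 °C, or 12.5-fold. The leading lower genes of 5DL had smaller ratios than those of 5AL and 5BL. Traes_5DL_E62052DC0 had 2.93 FPKM at 4 °C, against 31.7 FPKM at 23 °C, 10.8-fold lower. Traes_5DL_AA35A6840 had 1.13 FPKM at 4 °C, against 9.65 FPKM at 23 °C, 8.53-fold lower.

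Beyond these, 5BL had the steepest run of higher genes among the members of the 3 arms. Its 10 largest ratios went down to 15.1-fold, against 8.53-fold on 5AL and 7.65-fold on 5DL, with medians of 21.8-fold, 11.6-fold and 9.84-fold. In the other direction the 10th ratio was 6.41-fold on 5BL, 5.86-fold on 5AL and 6-fold on 5DL. The 10 higher genes of 5BL had 31.0 to 125 FPKM at 4 °C and 1.01 to 5.54 FPKM at 23 °C, those of 5AL 9.09 to 187 and 1.04 to 14.4 FPKM, and those of 5DL 7.73 to 157 and 1.01 to 10.9 FPKM. In the highest abundance class lay 7 of these genes on 5AL, 7 on 5BL and 2 on 5DL. Low values carried many of the ratios: 4 of the 10 on 5AL, 7 on 5BL and 8 on 5DL had under 3 FPKM at 23 °C. Another gene of 5BL among them had 125 FPKM at 4 °C, against 5.54 FPKM at 23 °C. Its main transcript had 120 FPKM at 4 °C and was listed at 0 at 23 °C, which can be a failed estimate. The lists of 10 come from arms of unequal size and were not made for the other arms. At least 8-fold higher were 24 genes of 5BL (1.46%), where 3B had the largest number (25) and 6DL the largest share (1.54%). With at least 5 FPKM in both conditions 5BL had 5 such genes and 5AL 6.

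**Figure D5:**
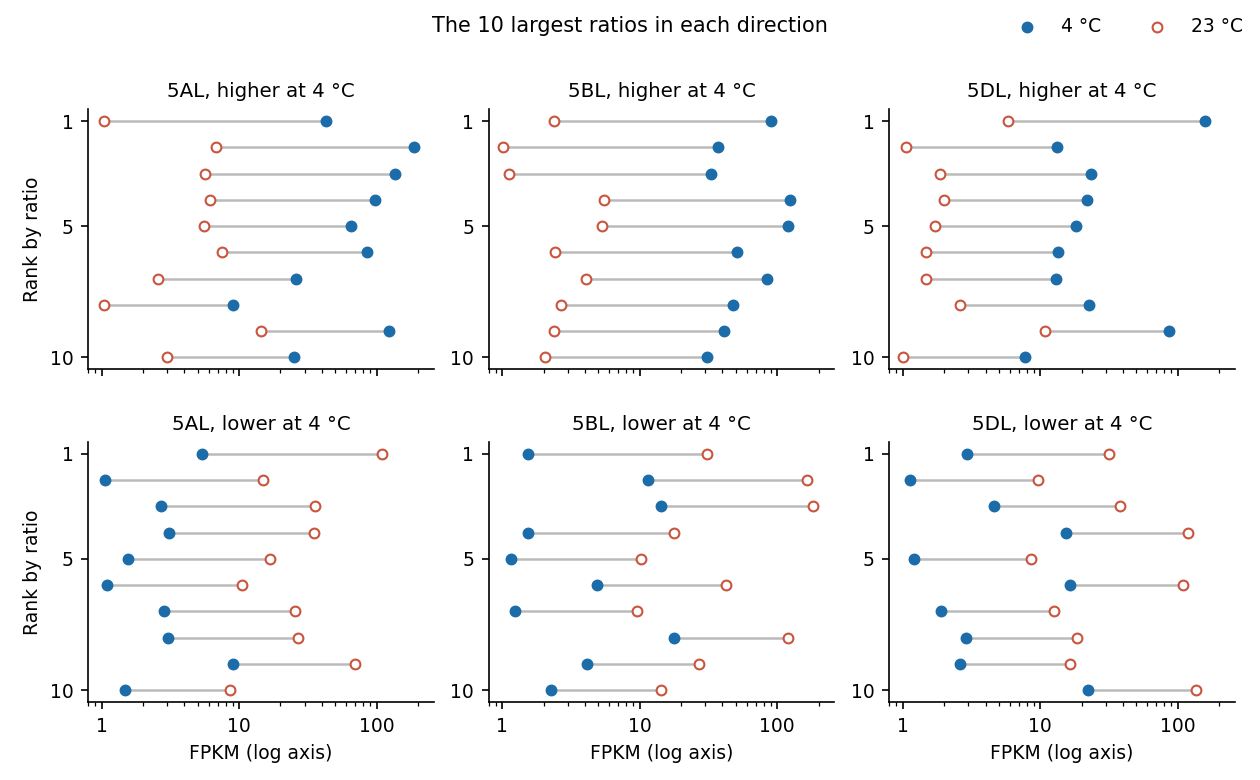
FPKM at 4 °C (filled) and at 23 °C (open) on a log axis for the 10 member genes with the largest ratio in each direction on 5AL, 5BL and 5DL, ranked from the top by ratio. Among the higher genes, the open points of 5BL lie at 1.01 to 5.54 FPKM and its filled points at 31.0 FPKM or more; on 5DL the first gene, at 157 FPKM at 4 °C and 26.7-fold, is followed by one of 12.5-fold.

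Among members, the 10 largest ratios took a modest part of each arm's total. The 10 higher genes made up 15.3% of the summed increases on 5AL, 10% on 5BL and 6.29% on 5DL. The 10 lower genes made up 13.4%, 16.1% and 13.9% of the summed decreases.

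The members carried several transcripts each, and genes with 1 transcript were more often past 2-fold in the higher direction than genes with many, as on the other arms. The median was 4 transcripts per gene on each arm. Of genes with 1 transcript, 40 of 241 on 5AL (16.6%), 54 of 274 on 5BL (19.7%) and 37 of 241 on 5DL (15.4%) were at least 2-fold higher. Of genes with 10 or more transcripts, 18 of 213 on 5AL (8.45%), 33 of 298 on 5BL (11.1%) and 32 of 283 on 5DL (11.3%) were. On the other arms these shares were 17.1% and 10.3%. At least 2-fold lower were 9.54% of the single-transcript genes of 5AL, 9.85% of 5BL and 14.1% of 5DL, and 7.51%, 11.1% and 8.13% of those with 10 or more transcripts, so 5BL went the other way. On the other arms these shares were 9.31% and 7.83%. Abundance differed between the classes as well, with a median of the mean FPKM of 5.87 for single-transcript genes and 4.45 for genes with 10 or more transcripts. Its part in the difference was not tested.

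Within a gene, transcripts mostly lay on the same side in genes past 2-fold. Of 1232 member genes with at least 2 transcripts at 1 FPKM or more in both conditions, the 2 most abundant such transcripts were both higher or both lower at 4 °C in 845 (68.6%). Among the 264 of these genes past 2-fold it was 248 (93.9%), with 73 of 76 on 5AL, 90 of 98 on 5BL and 85 of 90 on 5DL. On the other arms these shares were 68.0% and 94.6%, close to those of the 3 arms. The gene's level is the sum of such transcripts, so this follows in part from the choice of genes. The most abundant transcript differed between 4 °C and 23 °C in 64 of 486 genes of 5AL (13.2%), 82 of 560 of 5BL (14.6%) and 81 of 561 of 5DL (14.4%), counted where a gene had more than 1 transcript and 5 FPKM or more at 4 °C and at 23 °C. The other arms had 12.4%. Among 920 genes of the 3 arms whose leader held at least 60% of the gene at both temperatures, the leader differed in 5. On the other arms it differed in 47 of 6494 such genes.

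Of the identifiers outside the limits, 5850 were under 1 FPKM in both conditions, of which 2823 were listed at 0 in both. A further 442 genes reached 1 FPKM at 4 °C alone, namely 122 on 5AL, 174 on 5BL and 146 on 5DL, and 436 at 23 °C alone, namely 141, 166 and 129. These were 3.89% and 3.84% of the identifiers of the 3 arms, next to 4.0% and 3.82% over all 41 arms (3978 and 3801 of 99386). Most of these were weak, with a median of 1.68 FPKM at 4 °C in the first set and 1.55 FPKM at 23 °C in the second. On 5BL and 5DL strong values were more frequent at 4 °C alone: 13 genes of each had 10 FPKM or more there, against 4 of each at 23 °C alone, while 5AL had 3 in each set. Over all 41 arms 251 genes had 10 FPKM or more at 4 °C alone and 83 at 23 °C alone, so the excess on 5BL and 5DL was near that of the table. The highest were 25.88 FPKM on 5AL, 1188 FPKM on 5BL and, in Traes_5DL_8BBB72707, 9748 FPKM on 5DL. This 5DL gene was listed at 0 at 23 °C, which can be a failed estimate. At 23 °C alone the highest were 27.71, 13.78 and 21.13 FPKM.

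Genes with a mean of 100 FPKM or more, and at least 1 FPKM in both conditions, numbered 38 on 5AL, 46 on 5BL and 41 on 5DL. On each arm 7 of them exceeded 2-fold in favour of 4 °C, and 6, 4 and 4 in favour of 23 °C. Over all 41 arms 250 of 1063 such genes exceeded it in favour of 4 °C and 132 in favour of 23 °C, with a median log2 ratio of 0.20. The median log2 ratio was -0.04 on 5AL, 0.21 on 5BL and 0.27 on 5DL. Those of the 3 arms summed to 72314 FPKM at 4 °C, against 66802 FPKM at 23 °C, more than all members together. Over all 41 arms such genes summed to 415005 FPKM at 4 °C, against 442168 FPKM at 23 °C.

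Genes at the limits looked as follows. The gene just inside the minimum, on 5AL, had 1.0 FPKM at 4 °C, against 1.215 FPKM at 23 °C, and the gene just outside, also on 5AL, had 0.9992 FPKM at 4 °C, against 1.604 FPKM at 23 °C. Just inside the upper limit, a gene of 5BL had 14.20 FPKM at 4 °C, against 183.3 FPKM at 23 °C. Just outside, a gene of 5DL had 111.2 FPKM at 4 °C, against 88.84 FPKM at 23 °C. Of 127 genes whose lower value was 1 to under 1.1 FPKM, 25 exceeded 2-fold in favour of 4 °C and 16 in favour of 23 °C. Of 141 genes at 0.9 to under 1 FPKM, which are not members, 19 and 29 did. These bands were counted on the long arms of group 5 alone. Whether other arms differ from them at the limit was not tested.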

How the data were processed

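RNA sequencing of wheat leaves gave 6 libraries, 3 at 4 °C and 3 at 23 °C. The authors deposited FPKM values of 442311 transcripts in 2 columns, headed cold and control per the file headers and taken as 4 °C and 23 °C, the colder and the warmer temperature of the labels. The submitters' processing notes list Cuffdiff 2.1.1, Cufflinks 2.1.1, STAR 2.3.0e, Trimmomatic 0.30 and CASAVA 1.8.2. Settings, genome build, annotation and the way libraries were combined are not stated in the sources used here. Depth is unknown, so no level has an interval.

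FPKM were summed over the transcripts of each gene identifier, filtered (at least 1 FPKM in both conditions, mean under 100) and compared as the log2 of the plain ratio of 4 °C to 23 °C (Python 3.11.15, pandas 2.3.3, numpy 2.4.6). The minimum removes zeros, so no pseudocount was added. The limma test foreseen for columns per library could not be made. The same counts over all genes within the limits serve as background. For each arm, the rule for named genes gave the 2 members with the highest and the 2 with the lowest ratio; other genes were described without identifiers, except 1 gene outside the limits, chosen after its values were seen. The arms, limits and classes were chosen with earlier results of these data known. The counting step was tested on a copy of the 23 °C column in which some genes were given known fold changes, without noise. This checks the counting alone and not how accurate the fold changes of the data are. The alternatives were a pseudocount of 1, other limits, median-of-ratios scaling, genes with 1 transcript, the leading transcript, and classes by geometric mean, the last chosen after seeing the data.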

Additional observations from a re-analysis of the deposited data

How the results depend on the processing

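No paired analysis was possible because single libraries have no column of their own, and for that reason none could be left out. On the log2(FPKM + 1) scale, 99 genes of 5BL in place of 153 were at least 2-fold lower (6.03%). The share of all genes fell as well, to 5.04% from 7.81%. The lowest class had 104 higher and 71 lower in place of 201 and 154. The 104 and 71 genes were 4.91% and 3.35% of the class, against 4.27% and 3.12% on the other arms. The medians of 5AL, 5BL and 5DL were 0.07, 0.06 and 0.06. On the same scale, with the minimum of 1 FPKM set on the mean and not on each condition, the medians were 0.06, 0.06 and 0.06. Median-of-ratios scaling, which sets the median of all genes to 0, turned the medians of the arms to -0.02, -0.03 and -0.03. Its 12 counts stayed within 1.5 times. It moved the net summed differences (scaling chosen after seeing the data) to 1406, 1545 and 1260.4 FPKM, in place of 2479.6, 2834 and 2469. With at least 5 FPKM in both conditions, which leaves 1937 of 4497 genes and none in the lowest class, 76, 98 and 94 genes were higher and 37, 43 and 45 lower, the middle class had 123 higher and 71 lower, and the medians were 0.13, 0.11 and 0.14. Over the 756 genes with 1 transcript, 40, 54 and 37 were higher and 23, 27 and 34 lower, with medians of 0.21, 0.10 and 0.03, and from the lowest class to the highest 51, 47 and 33 were higher and 41, 36 and 7 lower. The smaller counts under these 2 filters follow at least in part from fewer genes. With at least 5 FPKM, 12.7%, 14.6% and 14.1% of the genes of 5AL, 5BL and 5DL were higher, against 12.8% of all genes. The lower shares were 6.17%, 6.41% and 6.76%, against 5.17%. With 1 transcript, 16.6%, 19.7% and 15.4% were higher, against 17.1% of all such genes, and 9.54%, 9.85% and 14.1% lower, against 9.49%. With the leading transcript the medians were 0.14, 0.12 and 0.11. Without an upper limit, and with classes by geometric mean (chosen after seeing the data), all counts stayed within 1.5 times. The 8-fold count of 5BL was 24, and 17 to 28 under the other settings apart from the 2 filters named, which gave 5 each. The share of lower genes placed 5BL between rank 4 and 21 of 41 arms over all settings, and 5DL between rank 3 and 15. 5DL ranked ahead of 5BL on the log2(FPKM + 1) scale with the minimum (3rd and 5th) and without it (15th and 21st). It also did so with at least 5 FPKM (3rd and 7th), with 1 transcript (5th and 17th) and with the leading transcript (5th and 12th). Under the other settings 5BL ranked ahead.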
